A study of Mus musculus with 59 samples.

Results

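Interferon-stimulated genes are the genes that cells switch on when interferon binds its receptors. The set described here was chosen by name and holds 39 mouse genes. It was followed across every array of a study of serous epithelial ovarian cancer (SEOC) in mice. Of the 39 genes, 36 had a probe set that names no other gene, among 18193 genes measured in all. Isg15 was named only on a probe set shared with another gene, and Oas1g and Ifi44 had no named probe set, so these 3 are not analysed here. Where a gene had several probe sets, the one of highest mean over all 59 arrays stood for it, and 14 of the 36 had such a choice. The question was whether these genes moved together as one program, array by array, and how their levels differed between normal epithelium, primary tumors of each genotype and transplanted tumors.

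All mice were FVB/NJ. The published set of 29 arrays held 3 samples of wild type normal ovarian epithelium and 26 primary ovarian tumors. All 26 carried K18 tg. Of these tumors, 14 were B1 fl/fl with p53 fl/fl (Brca1-deficient, p53-deleted), 3 were B1 fl/fl with p53 m/fl (Brca1-deficient, p53 missense), 5 were B2 fl/fl with p53 m/fl (Brca2-deficient, p53 missense) and 4 were p53 fl/fl alone (Brca wild type, p53-deleted). The new set of 30 arrays held 18 tumors labelled B1 D/D and cp D/D with K18 tg (Brca1-deficient, p53-deleted), of which 2 were primary and 16 passaged, and 12 labelled K18 D/D and cp D/D (Brca1 wild type, p53-deleted), of which 3 were primary and 9 passaged. Brca1-deficient tumors numbered 2, 4, 4, 4, 2 and 2 at passages 0 to 5, passage 0 being the primary tumor, and the wild type tumors numbered 3, 4 and 5 at passages 0 to 2. All tumors of both sets carried a keratin 18-driven transgene that inactivates the RB family, and their floxed alleles were recombined by adenoviral Cre placed in the ovarian bursa, so that recombination depends on which cells were infected. Passaged tumors grew from fragments set under the bursa of immunocompetent FVB females and hold host stroma and immune cells. Ages were not in the labels used here. In such bulk tissue, fewer cells of a type and less RNA per cell cannot be told apart.

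Values are the deposited log2 RMA levels, on which 1 unit is a doubling. The median level of an array ran from 7.20 to 7.28 in normal samples and from 7.29 to 7.51 in tumors. The epithelial keratin Krt18 ran from 13.34 to 13.96 in tumors and from 11.89 to 12.45 in normal samples, and Epcam from 12.15 to 13.38 and from 11.96 to 12.19. The normal samples also held transcripts of other ovarian cells: the mean level of 9 oocyte genes was 8.58 to 9.88 in them and 4.998 to 5.48 in the published tumors, and that of 8 granulosa, theca and luteal genes was 10.19 to 10.39 and 7.01 to 8.73. Brca1 itself did not separate the genotypes (9.55 to 11.18 in published Brca1-deficient, p53-deleted tumors and 9.77 to 10.74 in Brca wild type ones), and whether its probe set covers the deleted exons was not determined, so it checks no label. A pair of Brca1-deficient passage 3 tumors, 65021 and 64644, had nearly identical arrays (SD of their log2 difference 0.0722), as had a pair of passage 2 tumors, 62803 and 61362 (SD 0.0803), against 0.209 for the next nearest pair. Of these last tumors, 62803 is labelled wild type and 61362 Brca1-deficient. A second Xaf1 probe set, not used for the levels below, stood at 8.45 to 9.86 in the 12 wild type tumors of the new set and at 4.14 to 4.85 in the Brca1-deficient ones except 61362, which stood at 9.36. Within the new set 61362 therefore stood with the wild type tumors, against its label. In the published set this probe set did not follow Brca1. It stood at 9.09 to 9.42 in the 3 Brca1-deficient, p53 missense tumors, with a median of 5.10 in the 4 wild type ones. By itself it thus cannot show that the label is wrong. Results that rest on 61362 are given with and without it. A Brca1-deficient primary tumor, 30200, is in both sets by its label.

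Type I interferons signal through a kinase-coupled receptor to a complex that holds Stat2 and Irf9 and binds the interferon-stimulated response element (ISRE). Interferon gamma has a receptor of its own and acts on the gamma-activated sequence (GAS). The targets block viral entry, translation and replication, sense foreign nucleic acid and feed back on the pathway. In tumors such genes are known to be active both in the cancer cells and in infiltrating immune cells.

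Promoter windows are shown to place these genes in the 2 arms of the pathway. They also set genes that later stand apart (Gbp2, Gbp3 and Oas3) beside some that fell with passage (Ifit1, Ifit3 and Rsad2). RefSeq promoters of mouse GRCm38.p6 were held for 27 of the 36 genes and were searched over the 250 bases before the transcription start, on both strands. The ISRE was searched as GAAA, any 2 bases, then GAAA, and the GAS as TTCNNNGAA, and the motifs may overlap each other. An ISRE match was present in 11 of the 27 (40.7%), against 3.46% of 27025 genes with a promoter entry. The 11 were Bst2, Gbp2, Gbp3, Ifit1, Ifit3, Igtp, Irgm1, Oas1a, Oas3, Rsad2 and Stat2. Of the genes that fell with passage (below), only Ifit1, Ifit3 and Rsad2 had an ISRE match. Ifih1, Ddx58, Oasl2, Xaf1 and Adar had no match, Ifit2 and Eif2ak2 had a GAS alone, and Ifi27 and Dhx58 had no promoter entry. A GAS match was present in 7 of the 27 (25.9%), against 8.13% of all genes. Capitals mark the ISRE matches, which in 5 of the 6 windows read as the reverse complement. Each line is 5′ to 3′ on the gene's strand. Ifit1 lies at chr19:34640750-34640848 on the plus strand, Ifit3 at chr19:34583338-34583451 (plus), Rsad2 at chr12:26456528-26456607 (minus), Gbp2 at chr3:142620569-142620648 (plus), Gbp3 at chr3:142559964-142560043 (plus) and Oas3 at chr5:120777690-120777769 (minus).
Ifit1: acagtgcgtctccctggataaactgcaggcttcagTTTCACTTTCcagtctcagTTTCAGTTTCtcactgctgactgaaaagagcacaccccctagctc
Ifit3: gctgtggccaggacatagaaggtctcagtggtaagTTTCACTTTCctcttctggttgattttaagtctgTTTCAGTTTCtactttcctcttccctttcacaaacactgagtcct
Rsad2: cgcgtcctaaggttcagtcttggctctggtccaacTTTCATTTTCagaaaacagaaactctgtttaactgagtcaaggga
Gbp2: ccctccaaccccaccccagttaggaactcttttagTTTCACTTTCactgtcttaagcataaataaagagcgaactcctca
Gbp3: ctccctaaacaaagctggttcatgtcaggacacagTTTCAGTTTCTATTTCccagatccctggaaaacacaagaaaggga
Oas3: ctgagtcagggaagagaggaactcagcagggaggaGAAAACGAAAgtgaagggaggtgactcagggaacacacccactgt
Ifit1, Ifit3 and Gbp3 had 2 matches each in these windows, those of Gbp3 overlapping, and Rsad2, Gbp2 and Oas3 had 1. A match describes these letters and is neither a measured binding site nor a cause.

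The genes largely rose and fell together from tumor to tumor. Over all 56 tumor arrays the median Pearson r between 2 members was 0.38 over 630 pairs, against 0.005 over all pairs of genes, and 94.4% of the pairs were above 0. The first principal component held 40.4% of their variance and the second 11.7%. The same median was 0.42 in the 26 published tumors and 0.39 in the 30 new ones, 0.38 with near-identical arrays or tumor 30200 counted once, 0.34 without the 2 passage 4 tumors and 0.35 after the mean of each group and passage was taken out. These arrays share a platform and a normalization, and passaged tumors share lines to an extent the labels do not give. The correlations are therefore given as a description. The closest pair was Ifit1 and Ifit3, inhibitors of the translation of foreign RNA (r = 0.89). Next came Igtp and Irgm1, GTPases that act on vacuoles of intracellular pathogens (0.84), then the cytosolic RNA sensors Ddx58 and Ifih1 (0.83), then Ifit3 and Irf7 (0.80).

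Gbp2 and Gbp3 stood apart from most of the set. The 4 GTPases of the guanylate-binding and immunity-related families (Gbp2, Gbp3, Igtp and Irgm1) had a median r of 0.49 among themselves and of 0.19 with the 16 antiviral effectors, whose own median was 0.43. Irgm1 and Igtp nonetheless followed the mean of the other members (r = 0.67 and 0.50, against 0.16 for Gbp2 and 0.21 for Gbp3). Membrane proteins (Bst2, Ifitm1 and Ifitm3) were at 0.28 among themselves and 0.17 with the GTPases. The lowest pairs ran in opposite directions: Oas3, an oligoadenylate synthetase that arms RNase L, had r = -0.46 with Gbp2 and -0.36 with Gbp3. Gbp3 and Xaf1 stood at -0.28, and Bst2 and Gbp2 at -0.27. Every window shown above was of a gene with an ISRE match, so the windows cannot tell the ends of this range apart.

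**Figure D1:**
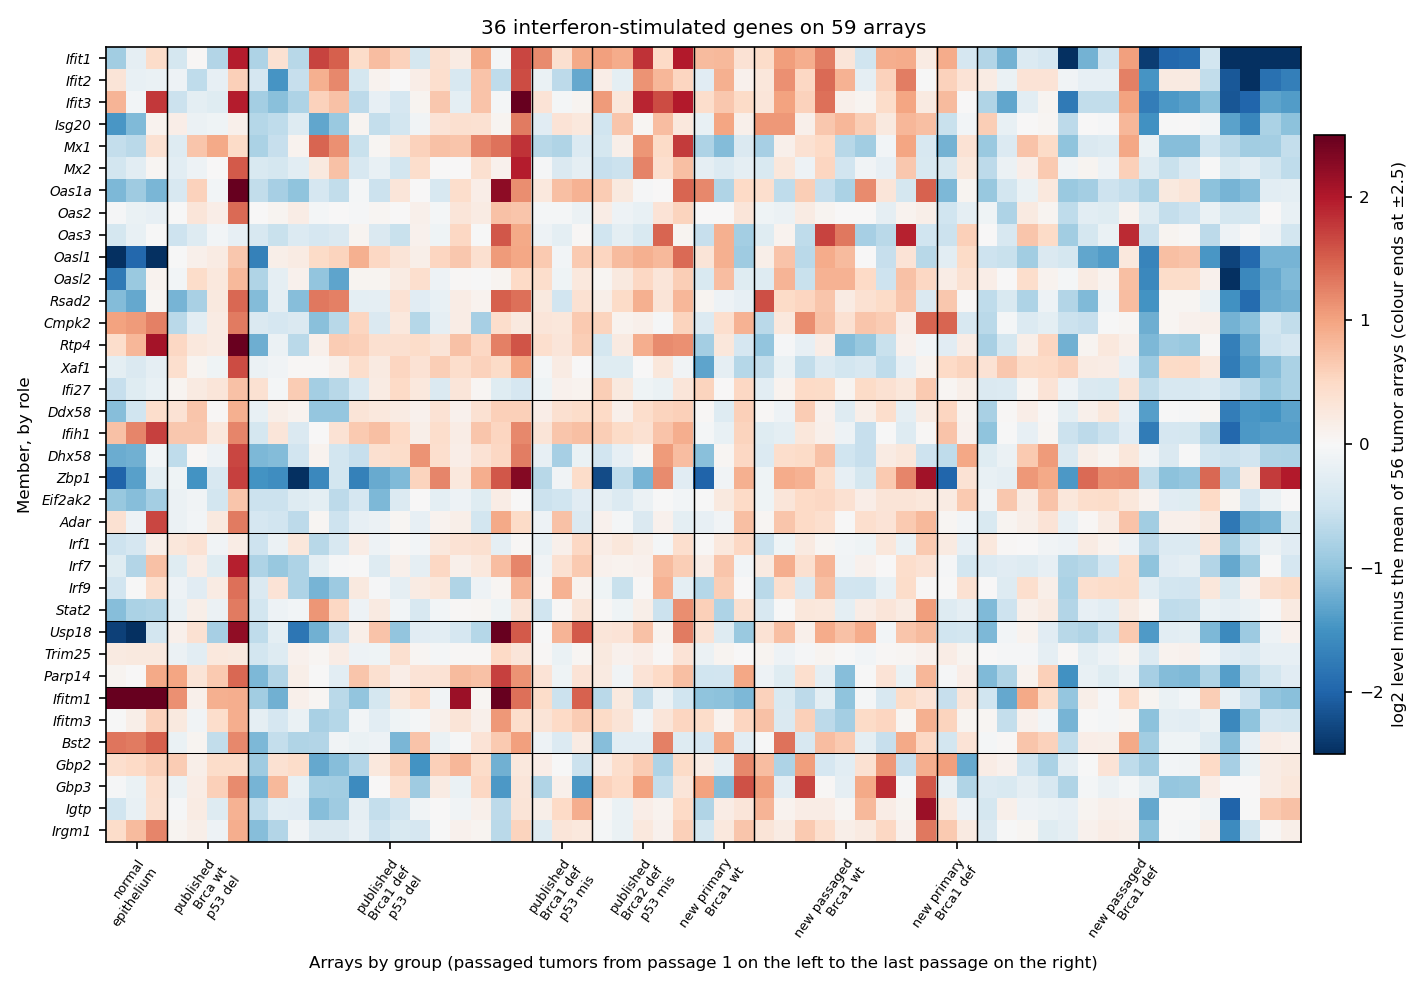
Level of each of the 36 members (rows, by role) in each of the 59 arrays (columns, by group and passage), as log2 difference from the member's mean over the 56 tumor arrays, with colours ending at 2.5 in each direction. Most rows share the blue columns of late Brca1-deficient passages and the red column of published wild type tumor 195571, while Gbp2 and Gbp3 depart from the other rows.

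Irf7, the transcription factor that amplifies the interferon response, followed the rest most closely. Its r with the mean of the other 35 members was 0.87 over 56 tumors, 0.92 in the published and 0.80 in the new set. Ifit3 (0.83), Rtp4 (0.77), Adar, which edits double-stranded RNA (0.76), and the mono-ADP-ribosyltransferase Parp14 (0.74) came next. Gbp2 (0.16), Gbp3 (0.21), the RNA-activated kinase Eif2ak2 (0.26), Oas3 (0.36) and Ifitm1 (0.37) followed the rest least. Eif2ak2 stood at 0.71 within the published and 0.50 within the new tumors, above its value over both. Ifi27, a mitochondrial membrane protein, was at 0.78 in the new and near 0 in the published tumors.

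**Figure D2:**
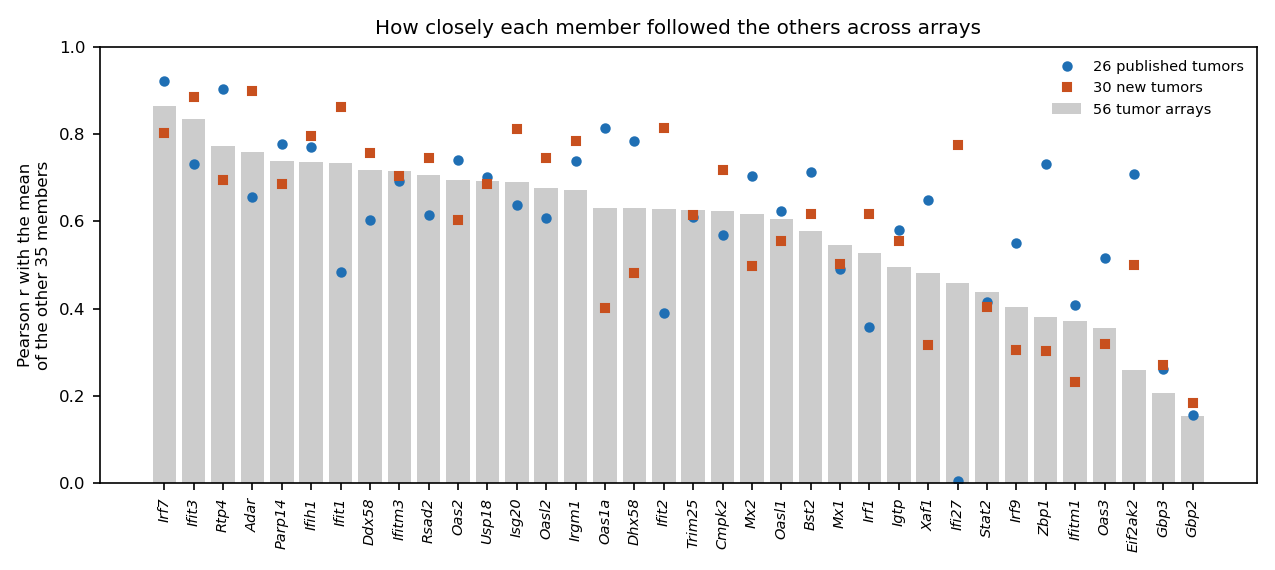
Pearson r of each member with the mean of the other 35, over all 56 tumor arrays (grey bars), the 26 published tumors (blue circles) and the 30 new tumors (orange squares). Irf7 is highest at 0.87 and Gbp2 lowest at 0.16 over all arrays.

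Outside the set, the 10 genes most like the per-array mean of the members, by Pearson r over the 56 tumors, were Parp12 (0.76), Dtx3l (0.75), Abca3 (0.75), Trim30a (0.73), Parp9 (0.70), Zbtb4 (0.70), Sp100 (0.70), Plaat3 (0.70), Tap2 (0.69) and Ifi35 (0.67). Zbtb4 and Plaat3 owed their place to the new tumors, with r of 0.87 and 0.92 there and of 0.26 and 0.38 in the published set. The mean level of 39 other type I targets had r = 0.87 with the per-array mean, and that of 16 gamma interferon targets 0.58. For the dendritic cell markers r was 0.42, but that list holds Bst2, itself a member, so the value is partly the members against themselves. For the epithelial markers r was 0.43, for 16 macrophage markers -0.21 and for 13 T and NK cell markers -0.09. The macrophage value changed sign between the sets, at 0.20 in the published and -0.30 in the new tumors. The 10 interferon ligand genes stood at -0.06. Their mean level was 5.09 to 6.07 in all tumors.

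The per-array mean is the mean of the 36 members after each was centred on its own mean over the 56 tumors. It ran from -1.19 in 62337, a Brca1-deficient passage 4 tumor, to 1.17 in 195571, a published Brca wild type tumor. Only 3 of the 36 members were above their own median in 62337, and 35 of 36 in 195571. Low arrays also included the other passage 4 tumor, 62338 (-0.90), passage 3 tumor 61742 (-0.89), published Brca1-deficient tumor R5848 (-0.68) and passage 2 tumor 61345 (-0.63). High arrays included published Brca1-deficient tumors 238721 (0.96) and 235746 (0.60). In 238721, 35 members were above their median, and in 235746, 25 were. In 235746 the membrane proteins averaged 2.11 above and the 4 guanylate-binding and immunity-related GTPases 0.99 below their tumor means.

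By group, the per-array mean was -0.08 ± 0.38 (SD, n = 3) in normal epithelium, 0.31 ± 0.58 (SD, n = 4) in published wild type tumors, 0.02 ± 0.42 (SD, n = 14) in Brca1-deficient, p53-deleted ones, 0.11 ± 0.12 (SD, n = 3) in Brca1-deficient, p53 missense ones and 0.29 ± 0.24 (SD, n = 5) in Brca2-deficient ones. All these groups overlapped within 1 SD. In the new set, with near-identical arrays counted once and the pair with both genotypes left out, it was 0.04 ± 0.18 (SD, n = 3) in wild type primary, 0.22 ± 0.18 (SD, n = 8) in wild type passaged, 0.03 ± 0.05 (SD, n = 2) in Brca1-deficient primary and -0.41 ± 0.39 (SD, n = 14) in Brca1-deficient passaged tumors. The last group was the lowest.

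**Figure D3:**
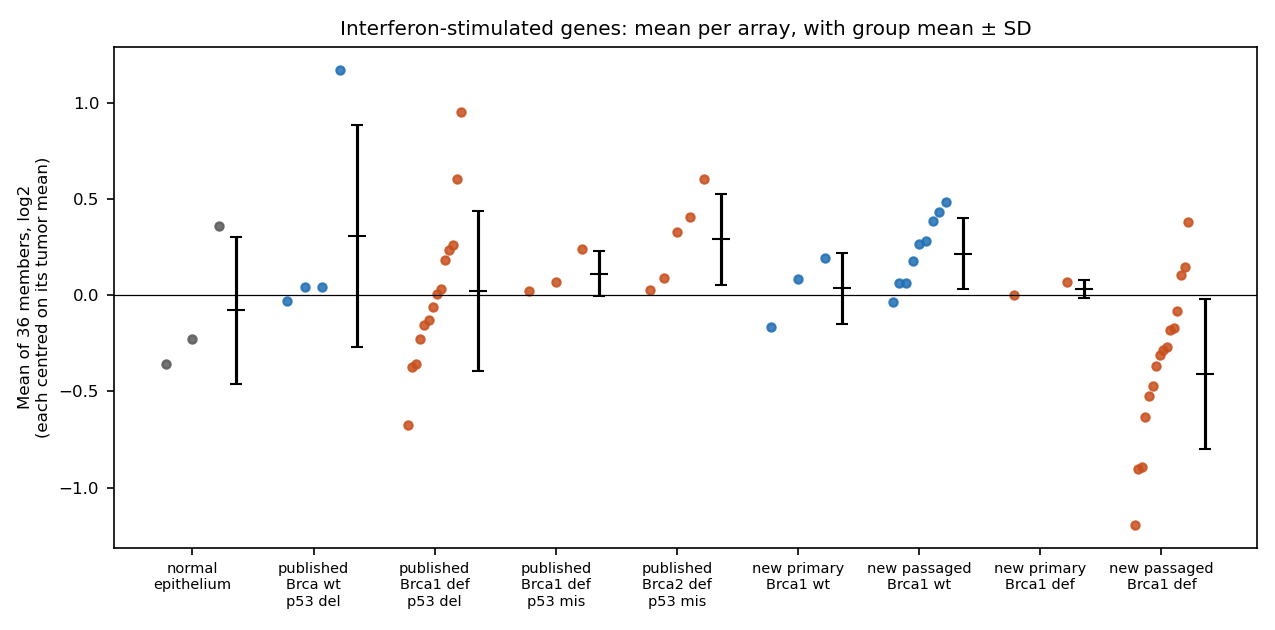
Per-array mean of the 36 members (log2 difference from each member's tumor mean) by group, with 1 point an array: grey for normal, blue for Brca wild type and orange for Brca1- or Brca2-deficient tumors. Black bars are the mean ± SD with near-identical pairs counted once; the passaged Brca1-deficient group reaches from 0.38 (tumor 61362) down to -1.19.

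Against normal epithelium, the 26 published primary tumors had no common direction in these genes. By limma, 6 of the 36 were higher and 5 lower at an adjusted p under 0.05, where 15% of all 18193 genes were higher and 26% lower. The median log2 difference was 0.28, against -0.11 over all genes, and 24 of 36 differences were above 0. With each array centred on its median, which moves the median of all genes by -0.17, 5 were higher and 7 lower. The 6 higher were 3 oligoadenylate synthetase family members, the modifier Usp18, the transcription factor Stat2 and the sensor Eif2ak2, and the 5 lower included 2 of the 3 membrane proteins.

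Oasl1, an oligoadenylate synthetase-like protein that in mice restrains Irf7 translation, rose most. It stood at 6.05, 6.54 and 7.31 in the 3 normal samples and from 7.59 to 10.68 (median 9.81) in tumors, all 26 of which were above every normal sample. The difference was 3.09 (SE 0.33, limma adjusted p = 2.03e-08). Usp18, the protease that removes Isg15 and dampens receptor signalling, stood at 6.61, 6.83 and 8.71 in normal samples and from 7.37 to 11.70 (median 9.27) in tumors, a rise of 1.97 (SE 0.62, limma adjusted p = 0.0113). The groups overlapped, with 19 of 26 tumors above every normal sample. Oas1a, an oligoadenylate synthetase, rose by 1.31 (limma adjusted p = 0.0375), Stat2 by 0.97 (0.00534), Oasl2 by 0.94 (0.0169) and Eif2ak2, which halts translation on binding double-stranded RNA, by 0.69 (0.00456). For Stat2 too, every tumor was above every normal sample.

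Ifitm1, a membrane protein that hinders viral entry, fell most. It stood at 11.08, 11.54 and 11.77 in normal samples and from 7.16 to 12.96 (median 8.45) in tumors, with 25 of 26 below every normal sample, a difference of -2.81 (SE 0.69, limma adjusted p = 0.00162). Bst2, which tethers budding virions, stood at 10.47, 10.49 and 10.65 in normal samples and from 8.01 to 10.42 in tumors, all of them lower, a difference of -1.48 (limma adjusted p = 0.00242). Cmpk2, a mitochondrial nucleotide kinase, fell by 1.12 (0.00508), Irgm1 by 0.90 (0.00605) and Ifih1 by 0.73 (0.0141). Of the 11 calls, 6 (Bst2, Cmpk2, Eif2ak2, Ifitm1, Oasl1 and Stat2) held when each normal sample was left out in turn. Oas1a passed in none of those 3 fits, Usp18 and Oasl2 not without normal sample 2 or 3, Ifih1 not without 1 or 3, and Irgm1 not without 1. The oocyte and granulosa transcripts that only the normal samples held at the levels given above moved with this comparison, with 9 of 9 and 7 of 8 lower in tumors. So did fibroblast genes (6 of 10 lower, median -1.84), T and NK cell genes (9 of 13 lower and 2 higher, median -0.68), endothelial genes (2 of 7 lower, median -0.83) and epithelial genes (5 of 10 higher, median 1.10). The part of these cells in it was not tested. For Adar the probe set used gave -0.65 (limma adjusted p = 0.0856) and its other probe sets 0.61 and 0.91, so its direction here is not settled.

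Around the members, the pathway was as divided. Of 39 other type I targets 9 were higher and 7 lower, among them Slfn9 (2.09) and Herc6 (1.30) against Oas1c (-2.29) and Ifit1bl1 (-1.49). Of 16 gamma targets 3 were higher and 3 lower, with Nlrc5, the activator of class I antigen presentation genes, at 3.14 and the chemokine Cxcl10 at 1.97. Of 15 sensing genes 3 were higher, including the DNA sensor Cgas at 2.31, and 2 lower. Of 11 receptor and signalling genes 2 were higher, including Ifnlr1 at 1.45, and 3 lower, including Ifngr2 at -1.22. Of 10 ligand genes 1 was lower, Ifng, at -0.22.

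Among the published tumors no genotype comparison moved a member past the threshold. Brca1-deficient against wild type, p53-deleted tumors gave 0 of 36 by limma, where 0.0055% of all genes were called (1 gene, with 706 of 18193 at an unadjusted p under 0.05). The median difference was -0.34 with 29 of 36 below 0, and it was -0.02 when wild type tumor 195571 was left out. The lowest was Gbp3 at -0.81 (limma adjusted p = 0.98), then Oas1a at -0.70; the highest were Oas3 at 0.28 and Ifit1 at 0.27. The shift rested largely on that tumor.

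For p53 missense against deleted in Brca1-deficient tumors limma called 0 of 36, where 0.0715% of genes were called (13 genes, with 1942 at an unadjusted p under 0.05). Mx1, a GTPase that blocks viral replication, stood at -1.13 (limma adjusted p = 0.385) and Ifit2 at -0.78, Usp18 at 0.95 and Igtp at 0.86. When all probe sets of a gene were averaged, Xaf1 alone was called, at 2.14, through its second probe set. That probe set stood at 4.40 to 5.28 in the 14 p53-deleted and at 9.09 to 9.42 in the 3 missense tumors, while the one used differed by -0.27. For Brca2-deficient against Brca1-deficient, p53 missense tumors limma called 0 of 36, where 0% of genes were called (1687 at an unadjusted p under 0.05). Ifit3 stood at 1.25 (limma adjusted p = 0.402) and Mx1 at 1.20, Ifitm1 at -0.80 and Zbp1, a sensor of Z-form nucleic acid, at -0.52. Ifit3 was 9.20, 9.98, 10.54, 10.82 and 10.90 in the 5 Brca2-deficient and 8.86, 8.98 and 9.26 in the 3 Brca1-deficient tumors, which overlapped by 1 tumor.

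**Figure D4:**
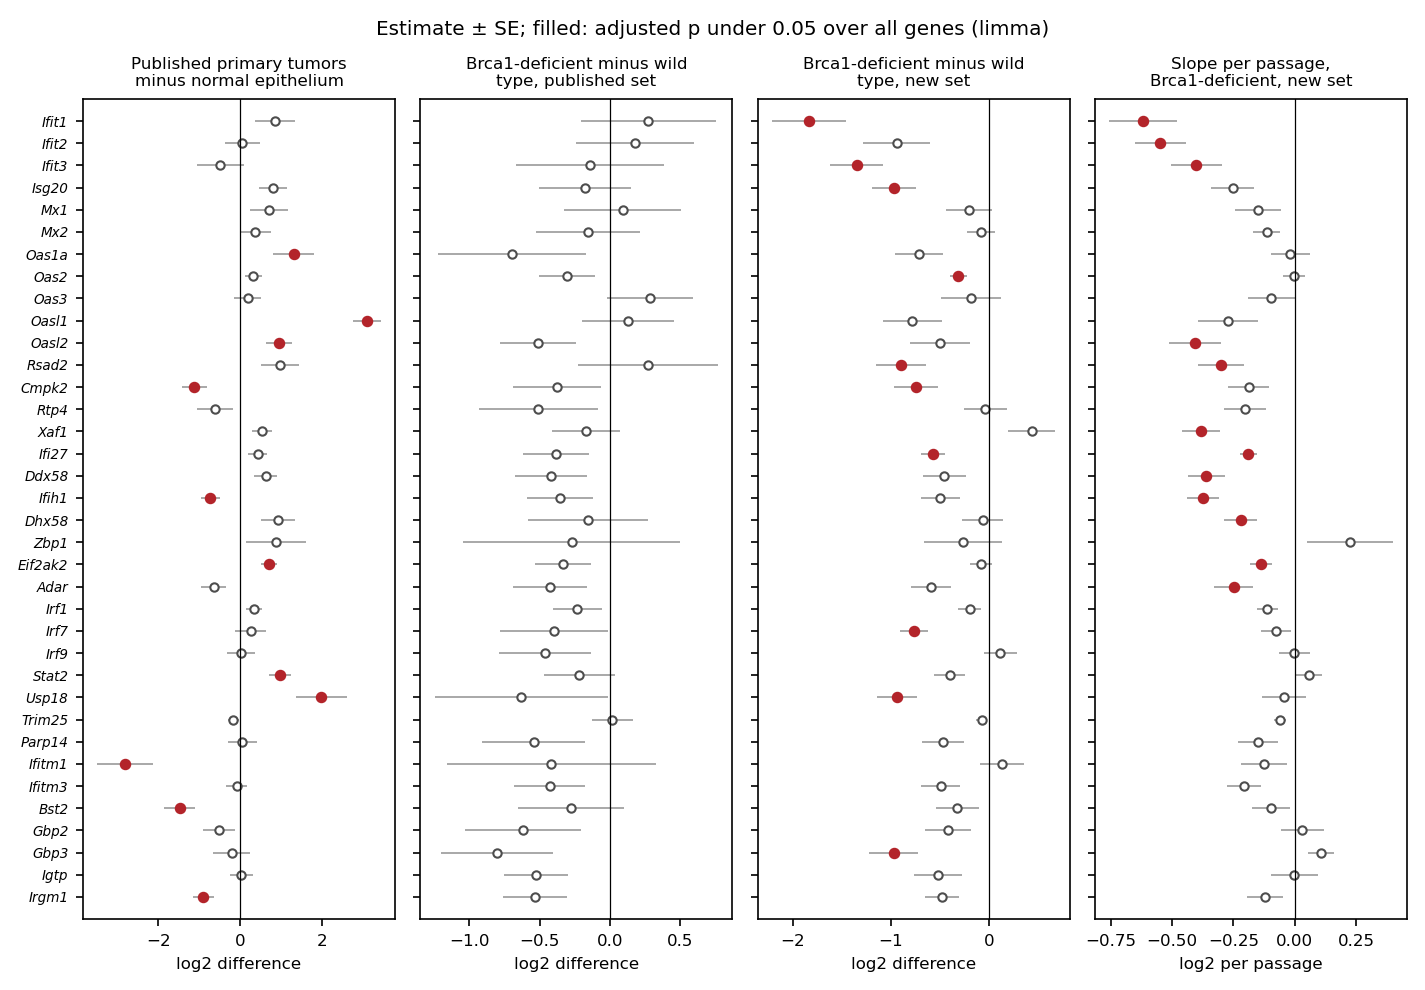
Log2 difference of each member (points, with bars of 1 SE) for published tumors against normal epithelium, for Brca1 in the published and the new set, and per passage for the slope, with filled points for an adjusted p under 0.05 by limma. The slope over passages and the Brca1 comparison of the new set lie mostly below 0, with 12 and 10 filled points, while the tumor against normal comparison has filled points on both sides.

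Transplantation as such moved no member past the threshold: passaged against primary tumors of the new set gave 0 of 36 by limma, where 0% of genes were called (1179 at an unadjusted p under 0.05). The median was -0.08, Ifit1 stood at -0.80, Ifih1 at -0.66, Zbp1 at 1.08 and Ifitm1 at 0.48. All 16 macrophage markers were above 0 in this comparison, with a median of 0.73, as were all 10 fibroblast markers (median 1.12) and all 7 B and plasma cell markers (median 0.27), none of them called. Their part was not tested.

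Within the new set's 18 Brca1-deficient tumors, most members were lower at later passages, though not in even steps. Fitted as a line over passages 0 to 5, 12 of 36 members fell and none rose by limma, where 6.46% of all genes fell and 8.7% rose. The slope was below 0 for 32 of 36, with a median of -0.14 log2 per passage against 0.01 over all genes. The 12 were 7 effectors (Ifit1, Ifit2, Ifit3, Oasl2, Rsad2, Xaf1 and Ifi27) and 5 of the 6 genes grouped as nucleic acid sensors (Ifih1, Ddx58, Dhx58, Adar and Eif2ak2). Adar edits RNA and is a sensor by this grouping alone. No membrane protein, transcription factor or guanylate-binding or immunity-related GTPase was among the 12.

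Ifit1 fell fastest. It stood at 8.37 and 9.72 in primary tumors, at 7.61, 8.07, 8.38 and 8.46 at passage 1, at 5.88, 7.62, 8.32 and 9.83 at passage 2, the highest being 61362, at 6.42, 6.84, 6.87 and 8.33 at passage 3, at 5.56 and 5.77 at passage 4 and at 6.24 and 6.31 at passage 5. Passages 4 and 5 lay below both primary tumors and all passage 1 tumors, while passage 2 spanned nearly the whole range, from below both passage 5 tumors to above both primary ones. The slope was -0.62 per passage (SE 0.14, limma adjusted p = 0.00603). Ifit2, which like Ifit1 restrains translation, stood at 9.45 and 9.69 in primary tumors, at 8.95 to 9.46 at passage 1, at 8.91 to 10.37 at passage 2, at 7.65 to 9.35 at passage 3, at 6.44 and 6.99 at passage 4 and at 7.26 and 7.41 at passage 5. Its slope was -0.55 (SE 0.11, limma adjusted p = 0.00245). For Ifit2, unlike Ifit1, both passages 4 and 5 were clear of all tumors of passages 0 to 3.

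Among the sensors, Ifih1 stood at 8.996 and 9.61 in primary tumors, 7.89 to 8.94 at passage 1, 8.23 to 8.61 at passage 2, 7.14 to 8.47 at passage 3, 6.93 and 7.44 at passage 4 and 7.50 and 7.51 at passage 5. Its slope was -0.37 (SE 0.07, limma adjusted p = 0.00128), and both primary tumors were above every passaged one. Ddx58 stood at 9.23 and 9.68 in primary tumors and at 7.42 to 7.81 over passages 4 and 5, with a slope of -0.36 (limma adjusted p = 0.00402). Oasl2 (-0.41, 0.0154), Ifit3 (-0.40, 0.0151), Xaf1 (-0.38, 0.00349), Rsad2 (-0.30, 0.0386), Adar (-0.25, 0.0439), Dhx58 (-0.22, 0.0333), Ifi27 (-0.19, 0.00179) and Eif2ak2 (-0.14, 0.0461) also fell, slope and limma adjusted p in that order. The second Xaf1 probe set had a slope of -0.03, and the other probe sets of Dhx58 slopes of -0.06 and -0.01, while those of Adar, Ddx58, Eif2ak2, Ifi27 and Rsad2 all lay between -0.50 and -0.10. Gbp3 (0.11) and Zbp1 (0.22) had slopes above 0 that did not pass.

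**Figure D5:**
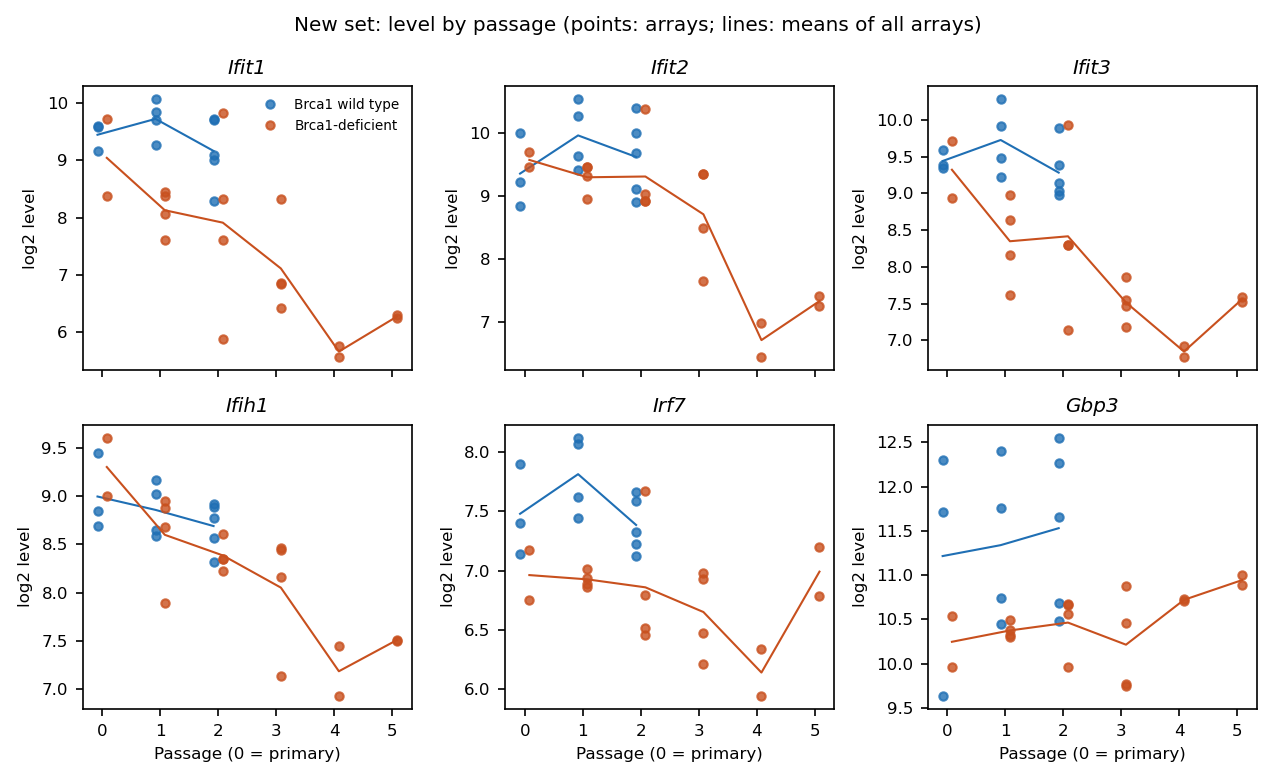
Log2 level of Ifit1, Ifit2, Ifit3, Ifih1, Irf7 and Gbp3 against passage (0 is the primary tumor) in the new set, 1 point an array, blue for Brca1 wild type and orange for Brca1-deficient tumors, with lines through the means of all arrays. Ifit1 falls from 8.37 and 9.72 to 6.24 and 6.31 in Brca1-deficient tumors, while Gbp3 stays between 9.75 and 10.999.

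The calls, more than the median slope, rested on the late tumors. Over passages 0 to 3 alone limma called 0 of 36, but the median slope was still -0.13. The per-array mean averaged 0.03, -0.10, -0.29 and -0.46 at passages 0 to 3, then -1.05 at passage 4 and -0.50 at passage 5. Near-identical arrays were counted once in these means and 61362 was left out. At passages 2 and 3 the mean leaned on 1 array each, 61345 at -0.63 and 61742 at -0.89. The others stood at -0.17 and -0.08 at passage 2 and at -0.18, -0.28 and -0.31 at passage 3. Passage 5 was thus near passage 3, with passage 4 lowest. Without the 2 passage 4 tumors 6 were called (Ifi27, Ifih1, Ifit2, Xaf1, Ddx58 and Ifit1). Of the 12 calls, 8 held when each primary, passage 4 or passage 5 tumor was left out in turn; Adar, Dhx58, Eif2ak2 and Rsad2 did not. Without 61362 there were again 12, 11 of them shared, with Isg20 in the place of Eif2ak2. For these fits on fewer tumors the share of all genes called was not counted. The wild type arrays analysed here end at passage 2. Late passage therefore cannot be told apart from what is particular to the Brca1-deficient line or lines that reached it. The labels do not give the line of the passage 4 and 5 tumors, which may be a single one.

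Among the other type I targets 14 of 39 fell and 1, Ifitm6, rose, with a median slope of -0.13. Of 16 gamma targets, the T cell chemokines Cxcl9 (0.69 per passage) and Cxcl10 (0.32) rose and none fell. Of the sensing genes Aim2 (0.49) and Tlr7 (0.38) rose and Tlr3 (-0.34), the endosomal sensor of double-stranded RNA, fell. Of the ligands Ifng rose by 0.06 per passage. Of the cell type markers, 7 of 16 macrophage genes rose over the same passages, with a mean level of 8.32 and 9.38 in primary tumors and of 9.89 and 10.00 at passage 5, and 6 of 13 T and NK cell genes rose and 1 fell, with a mean level of 5.67 and 5.76 and of 6.43 and 6.55. Of B and plasma cell genes 3 of 7 rose, of fibroblast genes 2 of 10 (all 10 slopes above 0), of endothelial genes 2 of 7, of dendritic cell genes 1 of 10 and of granulocyte genes 0 of 6. Of 10 epithelial genes 1 rose and 2 fell. Their part in the slopes of the members was not tested.

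Brca1-deficient tumors of the new set had lower levels than wild type tumors. The 18 and 12 tumors count as separate samples, though they may come from as few as 2 and 3 lines, the numbers of primary tumors. With primary or passaged as a covariate, 10 of 36 members were lower and none higher by limma. Of all 18193 genes, 837 (4.6%) were lower and 1180 higher. Among the members 33 of 36 differences were below 0 with a median of -0.48, against 0.00 over all genes. The 10 were 7 effectors (Ifit1, Ifit3, Isg20, Rsad2, Cmpk2, Ifi27 and Oas2), the transcription factor Irf7, the protease Usp18 and the GTPase Gbp3. Of the 18 Brca1-deficient tumors 8 were at passages 3 to 5, which no wild type array reached. The differences and counts over all 18 therefore mix late passage with genotype.

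Ifit1 ran from 5.56 to 9.83 (median 7.62) in the 18 Brca1-deficient tumors and from 8.30 to 10.07 (median 9.59) in the 12 wild type tumors. The difference was -1.83 (SE 0.38, limma adjusted p = 0.00258), and 11 of the 18 were below every wild type tumor. Ifit3 ran from 6.77 to 9.93 (median 7.74) and from 8.98 to 10.29 (median 9.38), a difference of -1.35 (SE 0.27, limma adjusted p = 0.0019). For both genes the highest Brca1-deficient tumor was 61362. Irf7 ran from 5.94 to 7.67 (median 6.83) and from 7.13 to 8.12 (median 7.51), a difference of -0.77 (SE 0.14, limma adjusted p = 0.00115). Its groups were nearly apart: 15 of the 18 were below every wild type tumor, and the highest, at 7.67, was again 61362.

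Isg20, a ribonuclease, differed by -0.97 (limma adjusted p = 0.00517), Usp18 by -0.94 (0.00363), Rsad2, which makes a chain-terminating nucleotide, by -0.90 (0.0212), Cmpk2 by -0.75 (0.0283), Ifi27 by -0.57 (0.00292) and Oas2 by -0.31 (0.0237). Gbp3 behaved differently from the rest in its spread: it ran from 9.75 to 10.999 in Brca1-deficient and from 9.63 to 12.56 in wild type tumors, and none of the 18 was below every wild type tumor. The wild type levels of Gbp3 lay in separate clusters. Tumors 29255, 56234, 56230, 62803 and 60514 stood at 9.63 to 10.75 and the other wild type tumors at 11.66 to 12.56. The Gbp3 difference was -0.97 (limma adjusted p = 0.0111), with only the upper cluster above every Brca1-deficient tumor. Whether the clusters are tumor lines is not in the labels, and their tumors count as separate samples. Of the 10 calls, 9 held when each primary tumor was left out in turn, and Cmpk2 was at a limma adjusted p of 0.0508 without 1 Brca1-deficient primary tumor. Without 61362, 12 were called.

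The 2 genotypes were both present only at passages 0 to 2. There limma called Irf7 lower (-0.64, adjusted p = 0.0296) and Xaf1 higher (0.84, adjusted p = 0.00643). The direction of Xaf1 turns with the probe set: over the whole new set the one used differed by 0.43 and the second by -4.56. Without 61362 it called Ifit1, Ifit3, Irf7, Isg20 and Usp18 lower and Xaf1 higher over those passages, with Ifit1 at -1.36 (limma adjusted p = 0.018). The same 6 were called with near-identical pairs counted once. The share of all genes called over passages 0 to 2 was not counted, so these calls cannot be set against it. At passage 1, which holds neither 61362 nor a late tumor, Ifit1 stood at 7.61 to 8.46 in the 4 Brca1-deficient and at 9.26 to 10.07 in the 4 wild type tumors, and Irf7 at 6.86 to 7.02 and 7.44 to 8.12. Neither gene overlapped there. In primary tumors both genes did overlap, Ifit1 at 8.37 and 9.72 against 9.15, 9.58 and 9.61, and Irf7 at 6.75 and 7.18 against 7.14, 7.40 and 7.90. Both were picked because they were called, and the share of all genes without overlap at passage 1 was not counted.

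Of the other type I targets 8 of 39 were lower, including Slfn8 (-1.89), Ifit1bl1 (-1.79) and Samd9l (-1.25), and 1 was higher, the lysosomal reductase Ifi30 (0.50). Of 16 gamma targets 2 were lower, Gbp7 and Wars. No ligand, receptor or sensing gene was called. Of 16 macrophage markers 15 were above 0, with a median of 0.43, though the single one called was lower. Markers of other cells were lower with the members: 3 of 7 B and plasma cell genes, 2 of 7 endothelial genes (median -0.30), 2 of 10 epithelial genes and 1 of 10 dendritic cell genes. The part of these cells in the difference was not tested.

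Members were called for Brca1 in the new set and not in the published set, but the difference between the sets, tested itself, was called for no member. By limma 0 of 36 differed, where 0.143% of genes did (26 genes, with 2007 at an unadjusted p under 0.05). The nearest were Ifit1 at -2.10 (SE 0.66, limma adjusted p = 0.209) and Ifit3 at -1.21 (0.406), with Xaf1 (0.61) and Irf9 (0.57) at the other end. The sets themselves, compared in p53-deleted primary tumors, gave 0 of 36 by limma, where 0.357% of genes were called (65 genes, with 2438 at an unadjusted p under 0.05). The lowest there were Ifitm1 at -1.15 and Mx1 at -1.06, and the highest Eif2ak2 at 0.50 and Cmpk2 at 0.47. Tumor 30200 enters both comparisons from either set, and without it limma again called 0 of 36 in each.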

How the data were processed

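RNA of flash-frozen mouse ovarian tumors and normal ovarian epithelium was amplified, biotin-labelled and hybridised to Affymetrix arrays. The authors normalized the arrays by RMA and deposited log2 values, 45037 probe sets in 59 arrays, running from 3.25 to 14.31; no source used here names the RMA version. Of the probe sets 34945 name 1 gene, 932 several and 9160 none, which gave 18193 genes with the probe set of highest mean each. A merged human and mouse table that the authors also deposited (log2 scale, 6167 mouse genes, 20 members) served as an alternative; its 278 other per-sample columns were not used. Comparisons were fitted across all genes with limma 3.58.1 (R 4.3.3), lmFit and eBayes, with Benjamini-Hochberg adjustment, two-sided, at 0.05, after the fit was tested on simulated data. The number of arrays limits the precision. Groups came from the labels. The labels do not give the line a passaged tumor came from, so tumors of 1 line count as separate samples and p-values, which measure only the spread between these samples, may be too small. The paper describes the new set as primary tumors with the transplants derived from them. With 2 Brca1-deficient and 3 wild type primary tumors in it, the passaged tumors may come from as few lines.

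Members and lists were chosen with earlier results of these data known. Named were the members past the threshold (up to 10 each way), otherwise the 2 largest each way, up to 4 called genes of the pathway lists, the 10 genes most like the per-array mean and the 5 members most and least like the others. Close paralogs (the Ifit, Oas and Gbp families, Ifi27) may share probe signal and are uncertain to that extent. Promoters came from a RefSeq table and no genome was used. Alternatives were the mean of probe sets, a filter on low values, array weights, a trended robust fit, centring on array medians, other covariates and samples, and leaving out replicates; those without the passage 4 tumors or tumor 61362, without tumor 30200 in the comparison of the Brca1 effects, and 2 more on the new set's Brca1 comparison, were chosen after seeing the data.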

Additional observations from a re-analysis of the deposited data

Results flagged for a closer look

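Of 111 sets of values tested for 1 sample apart from its group (by the gap to the nearest other sample as a share of the range), 8 were marked, where chance marks about 1 in 20. Published Brca wild type tumor 195571 accounted for 4: Ifit3 at 10.87 with the other 3 tumors at 8.38 to 8.66, Mx2 at 7.19 with the others at 5.38 to 5.65, Rtp4 at 11.51 with the others at 9.25 to 9.55, and the per-array mean of the members at 1.17 with the others at -0.03 to 0.04. In wild type passaged tumor 63935, Stat2 stood at 9.25 with the other 8 at 7.81 to 8.53, Igtp at 12.07 with the others at 9.97 to 10.78, and Irgm1 at 10.29 with the others at 9.09 to 9.63. In Brca2-deficient tumor 23172, Oas3 stood at 8.04 with the other 4 at 6.10 to 6.66.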

How the results depend on the processing

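Among members, Xaf1 reversed with the mean of all probe sets, to 2.14 in the p53 comparison and to -2.06 for Brca1 in the new set, called both times. Over the 33 calls of single members and these 2 results of Xaf1, the alternatives gave 415 values on the same side of the threshold, 97 no longer past it and 5 newly past it. Against normal epithelium, array weights gave 21 calls and the merged data, with 20 members, 6, against 11. The p53 comparison gave 1 call with the mean of all probe sets, against 0. For the slope per passage, array weights gave 19, the merged data 7, passages 0 to 3 alone 0, also without tumor 61362, and leaving out the passage 4 tumors 6, against 12. For Brca1 in the new set, passages 0 to 2 alone gave 2, and 6 with near-identical pairs counted once or without tumor 61362, against 10. With each member divided by its SD the lowest and highest per-array means were -1.77 and 1.79. Leaving out single replicates gave 8 to 11 calls against normal epithelium, 8 to 12 for the slope, 9 to 13 for Brca1 in the new set and 0 elsewhere. The causes of these changes were not tested. Calls over all genes were counted for the main fits alone, so the counts of the alternatives have no such share beside them. The normal samples number 3, and passages 4 and 5 hold 2 tumors each. No paired analysis was possible because the labels give the groups no shared replicate numbers, and tumor 30200 is the single tumor in both sets.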

Other observations

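The second Xaf1 probe set, which the level of Xaf1 above does not use, took 2 well separated levels over the arrays. It stood at 9.28 to 10.08 in the 5 Brca2-deficient, p53 missense tumors and above 7 in 1 of the 4 published wild type tumors (4.72 to 8.17). The 3 normal samples stood at 4.54, 6.57 and 8.79. Xaf1, like Trp53, lies on mouse chromosome 11. Tumors with p53 deleted stood at both levels, at 8.45 to 9.49 in new wild type primary and at 4.40 to 5.28 in published Brca1-deficient ones. Whether the levels go with chromosome position or with an engineered allele was not tested.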
